A study of Solanum lycopersicum with 18 samples.

Results

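The 200 genes described here are, of 29922 genes measured, those whose level in the *dgt* root meristem exceeded that in the WT meristem by most after any genotype difference in the older root zones was subtracted. For each zone L was the log2 ratio of the mean *dgt* TPM plus 1 to the mean WT TPM plus 1, and a gene's score was L in the meristem minus the larger absolute L of the elongation and differentiation zones. TPM is a transcript's share of the library after its length is allowed for. The genes were chosen by the 200 highest scores, so the genotype difference selected them and is given as a description, without a test. The WT levels of all 3 zones entered the score, so where the WT root expresses the genes is given as a description too. The difference between the elongation and differentiation zones within WT was not part of the score. WT was the tomato (*Solanum lycopersicum*) cultivar 'Ailsa Craig', and *dgt* was the dgt1-1 mutant in the same background, a single allele with no second mutant line or complemented line analysed here. Seedlings were 7 days old and grown on sucrose-containing agar medium without any treatment. The meristem, the elongation zone up to the first root hair bulge and the differentiation zone above it were dissected under a microscope, and many root portions were pooled in each of 3 biological replicates per genotype and zone, which gave 18 libraries.

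The plant root grows from a meristem of small dividing cells at its tip. Cells that leave the meristem first elongate and then differentiate, when root hairs, transport tissues and the enzymes of specialised metabolism appear, so position along the root corresponds to developmental age. DIAGEOTROPICA (DGT) is a cyclophilin A, a peptidyl-prolyl isomerase, and tomato plants lacking it are resistant to auxin, have shortened roots and form no lateral roots. Auxin, gibberellin and ethylene are hormones that act on the passage of cells from division to elongation. Because whole zones were sampled, fewer cells of a type and less RNA per cell cannot be told apart in any of the values below.

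Library totals of expected counts ranged from 17919441 to 29133603, the highest being that of WT meristem replicate 2. That library stood apart from its group. Over the 15606 genes with a WT meristem mean over 2 TPM, its median absolute log2 difference was 0.37 from replicate 1 and 0.41 from replicate 3, against 0.14 between those 2. WT elongation replicate 1 and WT differentiation replicate 1 differed from their groups by 0.27 to 0.32, where the other pair of each group differed by 0.15 and 0.14. The *dgt* pairs lay between 0.10 and 0.23. Without WT meristem replicate 2 the rule still chose 179 of the 200 genes. Dividing-cell genes found by symbol (cyclins, cyclin-dependent kinases and their partners, 18 genes) summed to 1183 to 1310 TPM in the WT meristem. Their sum was 1047 to 1191 TPM in the *dgt* meristem and 343 to 378 in WT elongation, so it was higher in both meristems. The largest in the WT meristem were *pcna* (mean 415 TPM) and *cycD3* (353 TPM), while some, such as *krp3* and *ccs52A*, were higher in the older WT zones. Between the meristems *cycd3c2* was called higher in *dgt* and *ccs52B* lower. The median log2 difference was -0.332 over the 18 genes and -0.039 over all genes tested. RefSeq names of assembly SLM_r2.1 could be attached to 188 of the 200 genes. In the files 24 have a symbol, the RefSeq table gives one to 8 more, and the rest are known by LOC identifiers without a product name here.

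The scores of the 200 genes ran from 1.19 to 4.38 (median 1.53) and their L in the meristem from 1.22 to 6.02 (median 2.24). The *dgt* meristem libraries were all above the WT meristem libraries for 192 of the 200 genes, where 27.7% of all genes with reads did so, and all below for 0 (8.09% of all genes), and with edgeR 182 of the 188 genes tested were called higher in *dgt*, against 10.1% of all genes tested (adjusted p under 0.05 and a fold over 2). Both counts restate the rule. In the older zones the choice was less clean than a meristem-only difference would be. L stayed within 1 of 0 in both older zones for 148 genes and within 0.5 for 88. It was above 1 in the elongation zone for 37 genes and in the differentiation zone for 18, and above 1 in both for 14, among them *LE25*, *PSK1*, *BOP2* and *MYB102*. These 14 were also higher in *dgt* in the older zones, only by less. In the opposite direction, L was under -1 in the differentiation zone for 10 genes. Every *dgt* library was above every WT library for 76 genes in elongation (36.0% of all genes with reads) and for 64 in differentiation (25.3%), and every one was below for 13 (6.53%) and 22 (12.3%) genes.

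The cutoff at 200 fell in a continuous run of scores. Just inside lay LOC101243640 (1.20), LOC112941596 (1.20), LOC101246412 (1.19), LOC101257533 (1.19) and LOC101265936 (1.19). Just outside lay LOC101260587 (1.19), LOC101263190 (1.19), LOC104649512 (1.19), LOC101260164 (1.18) and LOC109118943 (1.17). The gene ranked 200, LOC101265936, had 6.05, 5.54 and 7.10 TPM in the WT meristem and 21.7, 18.2 and 23.8 in the *dgt* meristem, and the gene ranked 201, LOC101260587, averaged 3.56 TPM in the WT meristem and 9.55 in the *dgt* meristem.

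Most of the 200 genes were expressed in the WT root, but at their highest above the meristem. A mean over 2 TPM in at least 1 WT zone was found for 156 of them. Setting aside 31 small structured RNAs that are described last, 79 genes (39.5%) exceeded a mean of 2 TPM in the WT elongation or differentiation zone and not in the WT meristem, a pattern shown by 10.1% of all genes. A further 52 (26.0%, against 51.3% of all genes) exceeded 2 TPM in the WT meristem, and 38 (19.0%, against 34.1%) did so in no WT zone. These numbers move with the pseudocount of 1 on TPM in the score. With 0.1 the 200 genes chosen held 118 of the older-zone group and 11 of the WT meristem group, and with 5 they held 32 and 103, so the second group was then the larger. The low share over 2 TPM in the WT meristem follows in part from the score, in which a low WT meristem value raises L. The WT zone with the highest mean was differentiation for 122 genes (61.0%, all genes 39.6%), elongation for 43 (21.5%, all genes 18.6%) and the meristem for 29 (14.5%, all genes 30.7%), and 6 had no WT reads. Together the 200 genes made up 0.131 to 0.153% of summed TPM in the WT meristem, 1.07 to 1.35% in WT elongation and 1.68 to 1.95% in WT differentiation. In *dgt* their share was 0.698 to 0.812% in the meristem, 1.22 to 1.301% in elongation and 1.53 to 1.85% in differentiation. The genotypes thus overlapped in both older zones and not in the meristem, a pattern that the rule selects.

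**Figure D1:**
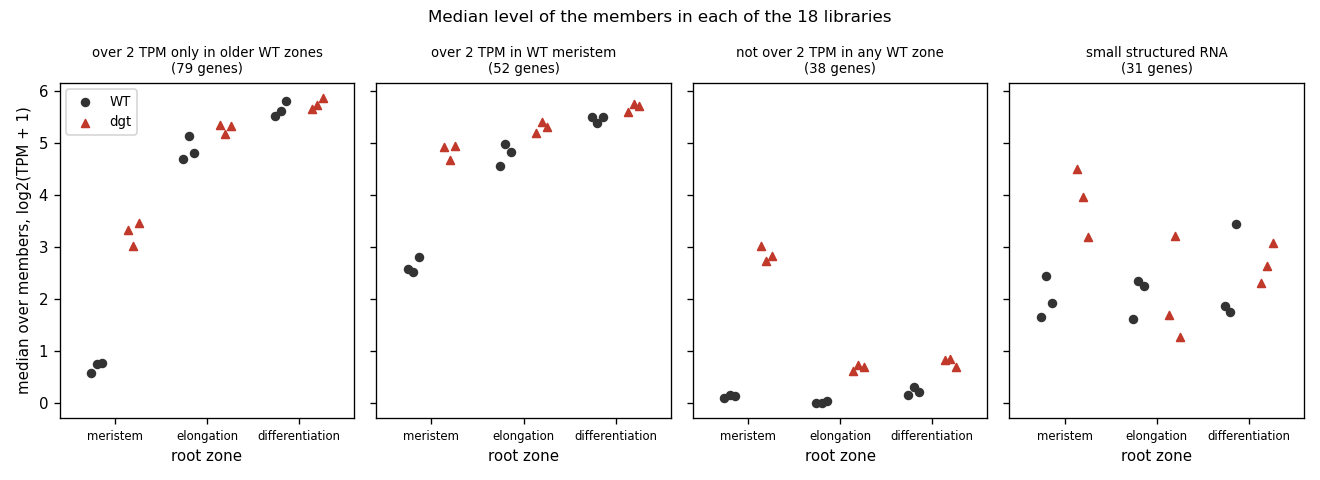
Median level of the member genes in each of the 18 libraries, as log2(TPM + 1), by root zone, for the 4 groups set by WT expression; circles are WT and triangles *dgt*, one point per library. In the 79 genes over 2 TPM only in older WT zones the WT meristem median is 0.633 TPM and the *dgt* meristem median 8.71 TPM, both below the elongation and differentiation medians of either genotype.

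The 79 genes confined to older WT zones by this 2 TPM limit were, for the most part, abundant there. Their median level was 0.633 TPM in the WT meristem, 28.2 in WT elongation and 49.9 in WT differentiation. In *dgt* the medians were 8.71, 35.9 and 48.3 TPM. Of the 79, 73 exceeded 2 TPM in both older zones, 4 in elongation only and 2 in differentiation only, and 29 exceeded 100 TPM in an older WT zone. The highest WT mean was in differentiation for 58 and in elongation for 21. LOC101248237 was the highest of them in WT differentiation, with 954, 886 and 840.2 TPM, and had 301, 409 and 277 in WT elongation. In the meristem this gene had 1.21, 1.78 and 1.32 TPM in WT and 16.7, 11.5 and 20.2 in *dgt*, with no overlap between genotypes. LOC101248378 showed the same order of zones, with 319.6 ± 72.8 TPM in WT elongation and 686 ± 196 in WT differentiation (SD, n = 3), and 1.02, 0.9 and 2.19 TPM in the WT meristem and 46.3, 33 and 44.9 in the *dgt* meristem. Its *dgt* differentiation libraries, at 262, 253 and 325, all lay below the WT ones. LOC109121038, the highest of the 79 in WT elongation, had 461 ± 73.5 TPM in WT elongation and 626 ± 125 in WT differentiation (SD, n = 3). Its meristem libraries held 1.42, 1.59 and 1.37 TPM in WT and 38.8, 35.4 and 53.5 in *dgt*.

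The 52 genes already over 2 TPM in the WT meristem followed the same course at a higher start. Their medians were 5.23 TPM in the WT meristem, 25.2 in WT elongation and 42.0 in WT differentiation, and 28.4, 39.3 and 50.7 in *dgt*. Only 6 of the 52 were highest in the WT meristem, while 13 were highest in elongation and 33 in differentiation. The most abundant was LOC101258434, named *PIP2-6* in the RefSeq table, a plasma membrane aquaporin. It had 32.3, 36.2 and 47.1 TPM in the WT meristem and 185, 133 and 159.7 in the *dgt* meristem, where the genotypes did not overlap, and 2378, 2441 and 1975 TPM in WT elongation. In WT differentiation it reached 3154, 2544 and 3249 TPM, so its *dgt* meristem level was 5.35% of the highest WT zone. LOC101260278 was next in WT elongation, with 718 ± 116 TPM in WT elongation and 667 ± 129 in WT differentiation (SD, n = 3), and 5.36, 5.61 and 5.49 TPM in the WT meristem and 32.2, 23.1 and 29.5 in the *dgt* meristem.

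The elongation and differentiation zones of the WT root could be compared by a test, since the rule did not use that difference. With edgeR, 145 of the 200 genes passed the filter on low counts in these libraries, and 35 (24.1%) were called higher in differentiation, where 16.6% of all genes tested were. A further 26 (17.9%) were called higher in elongation, where 15.8% of all genes were. Every differentiation library was above every elongation library for 92 of 189 genes with reads (38.7% of all genes) and below for 30 (16.2%). The median log2 difference was 0.46 over the 145 genes and 0.05 over all genes tested. By group, 21 of the 79 older-zone genes were higher in differentiation and 16 in elongation, and of the 47 tested genes over 2 TPM in the WT meristem the numbers were 12 and 9. In *dgt*, 159 genes were tested, with 33 (20.8%) higher in differentiation (14.1% of all genes) and 25 (15.7%) higher in elongation (16.2% of all genes). The 200 genes were thus split between both older zones, with shares in each direction of the same order as those of all genes.

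Of the genes with the smallest p toward differentiation, LOC101267877, whose transcript is annotated as noncoding, had 6.97, 8.78 and 9.27 TPM in WT elongation and 64.5, 84.5 and 78.9 in WT differentiation (log2 difference 2.79 ± 0.17, SE, edgeR adjusted p = 1.15e-06, higher in 3 of 3 libraries). Transcripts of *T12*, a homeobox gene, were at 9.98, 13.7 and 13.1 TPM in WT elongation and 42.3, 50.0 and 50.8 in WT differentiation (1.58 ± 0.12, edgeR adjusted p = 4.72e-06). LOC101250740 differed by 2.14 ± 0.19 (edgeR adjusted p = 9.78e-06) and LOC101267103 by 4.93 ± 0.45 (edgeR adjusted p = 1.39e-05). LOC101267103 had 43.7, 35 and 46 TPM in the *dgt* meristem, within the range of WT differentiation, 25.7, 50.0 and 55.4 TPM. These values were far above the 0.41, 2.26 and 0.61 TPM of WT elongation. In elongation this gene was also higher in *dgt*, with 175, 182 and 167 expected counts against 11.5, 65.35 and 17.7 in WT. Toward elongation, LOC101258632 had 59.1, 57.6 and 62.6 TPM in WT elongation and 5.04, 2.77 and 4.35 in WT differentiation (-4.26 ± 0.24, edgeR adjusted p = 7.89e-07). LOC101253826 differed by -2.73 ± 0.19 (edgeR adjusted p = 2.46e-06), LOC101252939 by -2.44 ± 0.17 (2.8e-06) and LOC101258246 by -1.88 ± 0.14 (3.52e-06). All 8 differences kept their sign in *dgt* roots, where they ranged from -3.37 for LOC101258632 to 1.98 for LOC101267103, a likeness of the older zones that the rule favours.

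**Figure D2:**
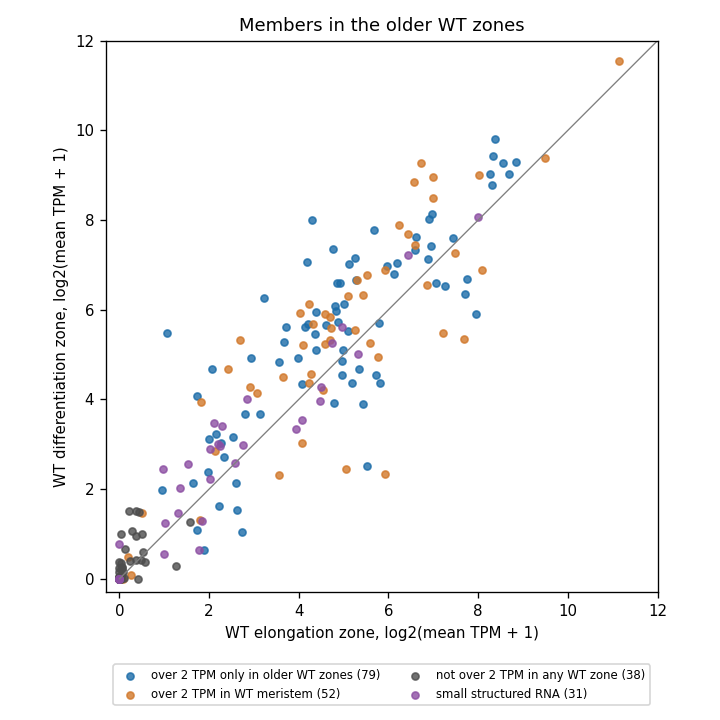
Mean level of each of the 200 genes in the WT elongation zone (x axis) and the WT differentiation zone (y axis), both as log2(TPM + 1), coloured by WT expression group; the line marks equal levels. Points lie on both sides of the line, with 122 genes having their highest WT mean in differentiation and 43 in elongation.

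Against the WT meristem itself, 117 of 146 genes tested (80.1%) were called higher in WT elongation, where 26.4% of all genes were, and 10 higher in the meristem, where 26.0% of all genes were. Against WT differentiation 119 of 150 (79.3%) were higher in differentiation (30.3% of all genes) and 10 in the meristem (25.8% of all genes). The WT meristem values entered the score, so these shares describe the genes and are no test. Among all genes tested the same WT groups differed in how often they were higher in the *dgt* meristem. Of the 2125 tested genes over 2 TPM only in older WT zones, 784 (36.9%) were called higher in the *dgt* meristem and 28 lower. Of the 15331 over 2 TPM in the WT meristem, 552 (3.60%) were called higher and 474 lower, and of the 2284 over 2 TPM in no WT zone 652 (28.5%) higher and 35 lower. The filter on low counts passed 2125 of 3035, 15331 of 15343 and 2284 of 10209 genes of these groups in turn. A gene low in the WT meristem can pass it through its *dgt* counts, which can raise the share called higher among those tested. The grouping itself also selects low WT meristem values. The part of the filter and of the grouping in this contrast was not tested.

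The *dgt* meristem was then compared with the older WT zones in level. Over all 200 genes its mean was above the higher of both older WT means for 98, under 50% of it for 81 and under 10% for 38. In the 79 older-zone genes the *dgt* meristem mean was, at the median, 13.5% of the higher of both older WT zones. It was under 50% of that level for 60 of the 79 and under 10% for 34, and above it for 13. *AADC2*, which encodes an aromatic amino acid decarboxylase, had 0.06, 0.08 and 0.07 TPM in the WT meristem and 4.50, 3.55 and 4.94 in the *dgt* meristem, and 45.3, 41.9 and 62.4 in WT differentiation, so the *dgt* meristem held 8.69% of the differentiation level. *TomloxE*, a lipoxygenase gene, was at 16.7% of the same zone and *JA2L*, a NAC transcription factor gene, at 74.5%. At the other end stood cases in which the *dgt* meristem exceeded every WT zone. LOC101245190 had 0, 0.04 and 0 TPM in the WT meristem and 77.2, 51 and 65.5 in the *dgt* meristem, against 3.65 in WT elongation and 2.07 in WT differentiation. This gene was also higher in *dgt* elongation, with 570, 524 and 456 expected counts against 59, 56 and 37.1 in WT. In differentiation it had 96, 76.9 and 95.6 expected counts in *dgt* and 32, 24 and 27 in WT. LOC101256378 had 0.65, 0.75 and 2.17 TPM in the WT meristem and 27.7, 19.6 and 27.6 in the *dgt* meristem, and 5.64 ± 0.864 TPM in WT elongation and 1.06 ± 0.287 in WT differentiation (SD, n = 3).

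**Figure D3:**
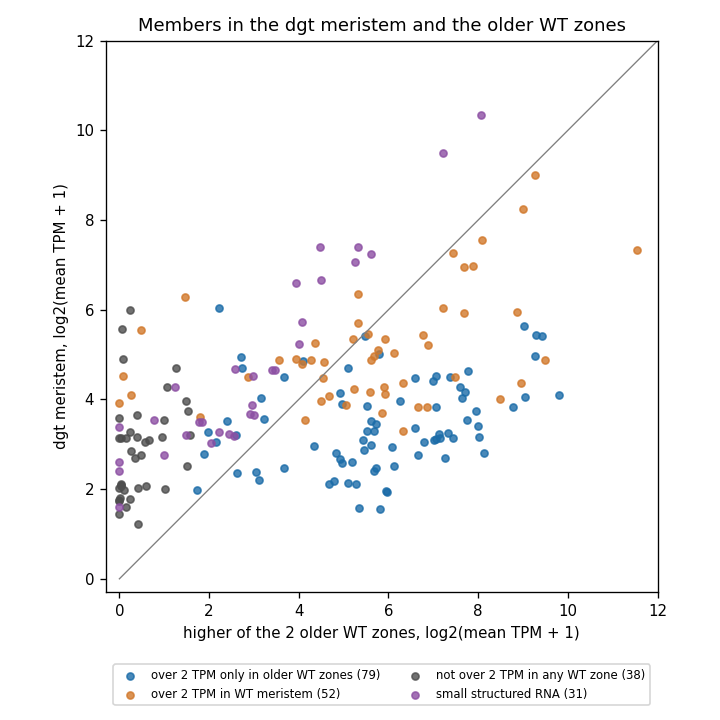
Mean level of each of the 200 genes in the *dgt* meristem (y axis) against the higher of its means in the WT elongation and differentiation zones (x axis), both as log2(TPM + 1), coloured by WT expression group; the line marks equal levels. Of the 79 older-zone genes, 13 lie above the line and 60 at less than 50% of the older WT level.

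Genes of gibberellin metabolism stood on both sides of the pathway. *20ox-2* encodes a gibberellin 20-oxidase, an enzyme of gibberellin synthesis, while *GA2ox4* and *GA2ox5* encode gibberellin 2-oxidases, which inactivate the hormone. *20ox-2* had 0.04, 0 and 0 TPM in the WT meristem and 7.24, 5.78 and 5.51 in the *dgt* meristem, and at most 0.44 TPM in any library of the older WT zones. *GA2ox5* had 0.05, 0.04 and 0.12 TPM in the WT meristem and 6.62, 4.24 and 6.87 in the *dgt* meristem, and its WT roots had 3.18, 2.32 and 2.65 in elongation and 0.49, 0.52 and 0.69 in differentiation (log2 difference -2.64 ± 0.33, edgeR adjusted p = 0.000103). *GA2ox4*, its neighbour on chromosome 7, had 0.51, 0.3 and 0.39 TPM in the WT meristem and 7.67, 6.27 and 9.98 in the *dgt* meristem, and WT means of 0.287 and 0.943 TPM in elongation and differentiation. Expected counts of both neighbours were in part not whole, such as 9.91 for *GA2ox4* and 1.09 for *GA2ox5* in WT meristem replicate 1. Their values may therefore rest in part on shared reads. In all 3 genes the *dgt* meristem libraries lay above all WT libraries of every zone. Of 9 gibberellin oxidase genes found by symbol, 5 passed the filter in the meristem and these 3 were the ones called higher, a list drawn up after the values had been seen. Of all genes tested 10.1% were called higher. With 1, 0 and 0 counts in the WT meristem, *20ox-2* passed the filter through its *dgt* counts, while genes low in both genotypes were left out. The count is therefore a description only.

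Of the ethylene and auxin genes, *ACS1A*, one of the ACC synthases that make the ethylene precursor, had 1.12, 0.75 and 1.15 TPM in the WT meristem and 7, 4.04 and 6.17 in the *dgt* meristem. Its WT level rose along the root, with 28.5, 50.2 and 34.1 TPM in elongation and 78.8, 104 and 119 in differentiation (1.04 ± 0.17, edgeR adjusted p = 0.000588). *IAA8*, listed as *IAA15* in the RefSeq table, and LOC101055546, named *IAA13* there, encode Aux/IAA proteins, repressors of auxin-responsive transcription. *IAA8* had 5.55, 4.38 and 4.31 TPM in the WT meristem and 29, 28.1 and 27.6 in the *dgt* meristem, and 16, 18.8 and 20.2 in WT differentiation, so that the *dgt* meristem exceeded each WT zone. Its *dgt* means were also higher in elongation (13.1 TPM against 6.56 in WT) and in differentiation (30.7 against 18.3). *IAA13* had 11.8, 12.9 and 14.4 TPM in the WT meristem and 45.4, 43.1 and 64.1 in the *dgt* meristem, with WT means of 24.7 and 38.8 TPM in the older zones. *PSK1*, the precursor gene of the growth peptide phytosulfokine, had 4.76, 3.46 and 4.75 TPM in the WT meristem and 46.7, 34.7 and 31.2 in the *dgt* meristem, but was also higher in *dgt* in elongation (L 1.51) and differentiation (L 1.07). Over the families found by symbol, 9 of 28 tested auxin genes were called higher in the *dgt* meristem and 1 lower, and 7 of 21 ethylene genes higher and 2 lower, against 10.1% and 2.72% of all genes. One gene of each of these lists, *IAA8* and *ACS1A*, is among the 200.

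Of the symbols of enzymes given next, *THT1-3*, *TomloxE*, *SlUGT73C4* and *tEG3* were in the older-zone group and *sps* in the WT meristem group. *THT1-3* encodes a tyramine hydroxycinnamoyl transferase, which joins tyramine to phenolic acids. It had 0.41, 0.15 and 0.16 TPM in the WT meristem and 10.7, 7.26 and 11.7 in the *dgt* meristem, and 28.2 ± 5.47 TPM in WT elongation and 52 ± 5.72 in WT differentiation (SD, n = 3). All WT differentiation libraries lay above all WT elongation libraries, but the difference missed the threshold (0.50 ± 0.21, edgeR adjusted p = 0.0652). *TomloxE* had 0.6, 0.9 and 0.74 TPM in the WT meristem and 21.6, 17.8 and 26.6 in the *dgt* meristem, and rose in WT from 17.7, 22 and 11.7 TPM in elongation to 150.5, 128 and 117 in differentiation (2.57 ± 0.26, edgeR adjusted p = 2.23e-05). In *dgt* elongation *TomloxE* was also higher than in WT, at 67.6, 54.3 and 86 TPM. The genotypes overlapped in neither of these zones. *SlUGT73C4*, a UDP-glycosyltransferase gene, had 0.76, 1.19 and 0.79 TPM in the WT meristem and 9.05, 8.12 and 11.8 in the *dgt* meristem, and 180.4, 290.2 and 291 in WT differentiation, where it differed from elongation by 3.40 ± 0.32 (edgeR adjusted p = 1.65e-05). *tEG3*, listed as the beta-galactosidase gene *TBG4* in the RefSeq table, had 0.89, 1.27 and 1.52 TPM in the WT meristem and 8.10, 6.82 and 8.28 in the *dgt* meristem, and 132 as its WT differentiation mean. *sps* had 6.04, 3.48 and 5.07 TPM in the WT meristem and 17.7, 16.6 and 16.6 in the *dgt* meristem, with 46.8 TPM in WT elongation and 37.3 in WT differentiation (-0.72 ± 0.18, edgeR adjusted p = 0.0058, under 2-fold).

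*LE25* encodes a late embryogenesis abundant protein, a class known from drying seeds and water-stressed tissue. It was near 0 in all WT libraries, with at most 0.15 TPM, and had 46.4, 33 and 59.4 TPM in the *dgt* meristem, 5.41, 12.5 and 8.93 in *dgt* elongation and 3.53, 7.48 and 1.63 in *dgt* differentiation. It was therefore higher in all 3 zones of *dgt*, most in the meristem. *cevi19*, listed with the fatty acid desaturase synonym *SlFAD2-6* in the RefSeq table, had 0.6, 0.87 and 1.02 TPM in the WT meristem and 34.7, 23.7 and 30.5 in the *dgt* meristem, while its WT older zones stayed between 2.93 and 7.82 TPM, so the *dgt* meristem was the highest of all groups. *TSI-1*, a stress-induced gene of the PR-10 type, had 0, 0.06 and 0 TPM in the WT meristem and 11.8, 7.05 and 12.5 in the *dgt* meristem. In differentiation *TSI-1* was again higher in *dgt*, with 26.7, 31.1 and 15.9 TPM against 4.73, 3.89 and 4.11 in WT, and in elongation it was not (L 0.07). *TPS38*, a terpene synthase gene, and *CHRDi* were low everywhere except the *dgt* meristem, where *TPS38* had 2.70, 3.96 and 2.85 TPM and *CHRDi* 2.74, 2.59 and 4.22. Of the lists formed by the first letters of symbols, that of defence and wounding had 2 of 20 tested genes called higher in the *dgt* meristem and 1 lower, near the 10.1% and 2.72% of all genes tested. The water-stress list had 3 of 9 called higher, *LE25*, *TAS14* and *LEAS1*. Its letters also took in *LeAMT1;1*, an ammonium transporter gene, and *LeANT*, neither of which was called. The phenylpropanoid and peroxidase list had 1 of 8 called higher, *cevi19*, which by its synonym belongs to neither kind.

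Genes of transcriptional regulators made up most of the remaining symbols. *JA2L* had 0.63, 0.81 and 0.47 TPM in the WT meristem and 24.2, 23.3 and 27.2 in the *dgt* meristem, and 29.5, 38.1 and 32.8 in WT differentiation. *NAC2* (LOC101250466), another NAC gene, had 0.48, 0.54 and 0.72 TPM in the WT meristem and 19, 13.3 and 17.4 in the *dgt* meristem, and in WT was higher in differentiation than in elongation (1.76 ± 0.25, edgeR adjusted p = 0.0002). Both genes were also above WT in all 3 *dgt* elongation libraries, with L of 1.27 and 2.19 there. *T12* had 0.84, 0.62 and 1.14 TPM in the WT meristem and 7.29, 6 and 7.58 in the *dgt* meristem, below the WT differentiation range given above. *abz1*, a bZIP gene, had 1.59, 2.26 and 2.26 TPM in the WT meristem and 14.6, 13.7 and 19.1 in the *dgt* meristem, and rose in WT from 3.03, 6.17 and 3.91 in elongation to 21, 27.2 and 25.1 in differentiation (2.10 ± 0.20, edgeR adjusted p = 1.87e-05). *ERF-H8* (LOC101254925), of the ethylene response factor family, had 0.94, 0.89 and 1.58 TPM in the WT meristem and 7.72, 5.66 and 8.55 in the *dgt* meristem, which was 6.67% of its WT differentiation mean. *MYB102* (LOC101250764) had 0.04, 0 and 0 TPM in the WT meristem and 7.16, 6.35 and 8.33 in the *dgt* meristem, *OFP20* (LOC101265492), of the OVATE family, means of 0.287 and 5.97, and *BOP2* (LOC101246001) means of 1.20 and 15.4. These last 3 were also higher in *dgt* elongation, with L between 1.16 and 1.24. *TRM9* (LOC101264556) had 4.18, 4.10 and 3.75 TPM in the WT meristem and 29.9, 23.1 and 32.3 in the *dgt* meristem, and WT means of 10.8 and 3.99 TPM in elongation and differentiation, so its *dgt* meristem level was above every WT zone.

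**Figure D4:**
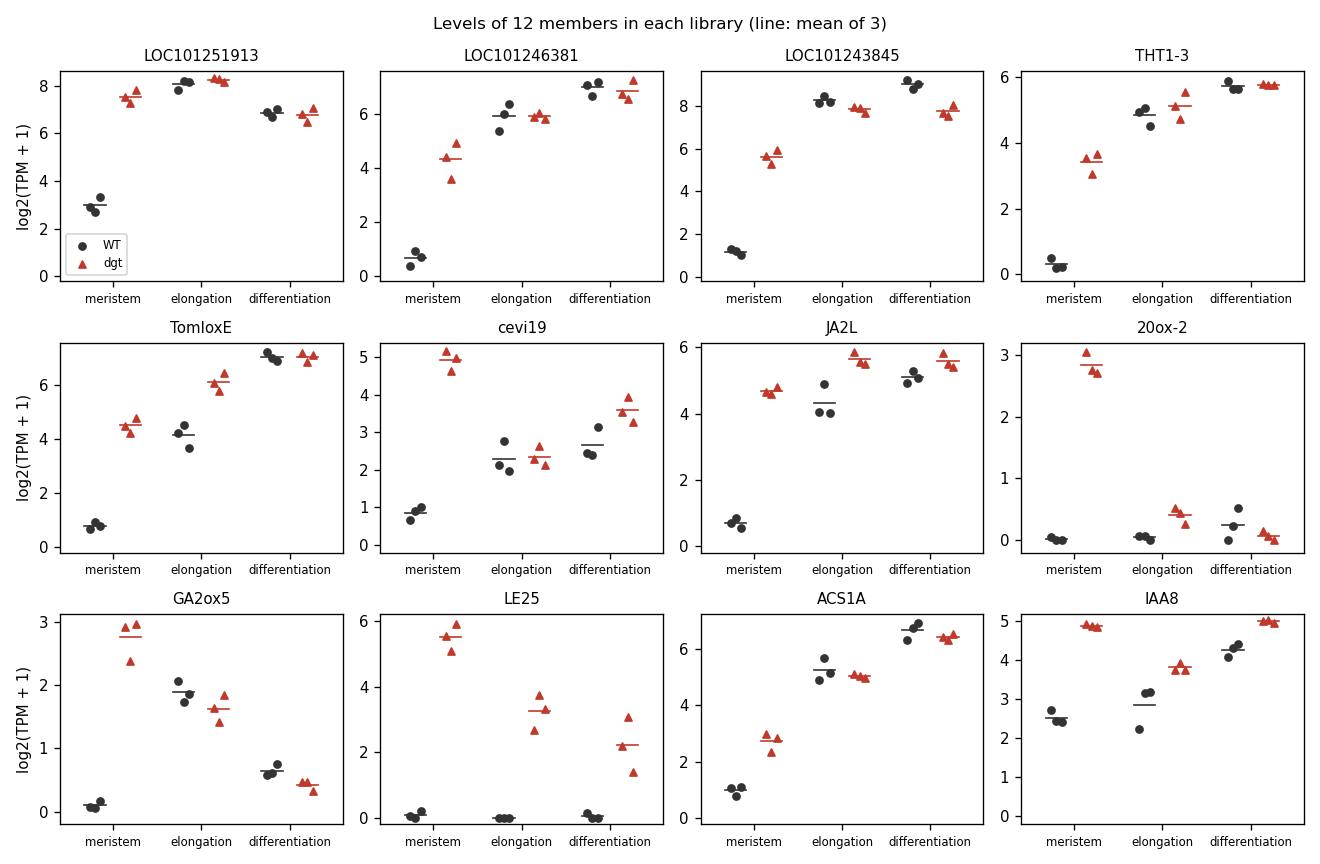
Levels of 12 member genes in each of the 18 libraries, as log2(TPM + 1), by root zone; circles are WT and triangles *dgt*, and short lines are means of 3 libraries. In each panel the 3 *dgt* meristem libraries lie above the 3 WT meristem libraries, while *20ox-2* and *LE25* stay near 0 in all WT zones and *THT1-3*, *TomloxE* and *ACS1A* are highest in differentiation in both genotypes.

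The 12 highest scores, other than those of *cevi19* and of the 4 genes already described, belonged to genes with no product name here. LOC101251913 ranked first, with 6.61, 5.51 and 8.91 TPM in the WT meristem and 185, 153 and 223 in the *dgt* meristem. In WT it was highest in elongation, 227, 294 and 288 TPM, against 119.7, 103 and 129 in differentiation (-1.58 ± 0.16, edgeR adjusted p = 2.13e-05), and the *dgt* older zones overlapped the WT ones. LOC101258717 had 0.47, 0.37 and 0.43 TPM in the WT meristem and 18.8, 14.6 and 17.5 in the *dgt* meristem, and 209 ± 42.7 TPM in WT elongation and 80.8 ± 15.6 in WT differentiation (SD, n = 3). LOC101247723 had 1.64, 2.35 and 1.55 TPM in the WT meristem and 27.1, 23.6 and 42.5 in the *dgt* meristem, with WT means of 54.5 and 51.5 TPM in the older zones. In both, the *dgt* meristem libraries lay between the WT meristem and the older WT zones. LOC101254669 had 1.36, 1.17 and 2.12 TPM in the WT meristem and 28.5, 27.7 and 27 in the *dgt* meristem. Its *dgt* meristem thus exceeded both WT elongation, 2.29 TPM, and WT differentiation, 16 TPM. The 3 others of the 12 lie in chromosomal runs.

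Several of the genes are neighbours. Of the 188 placed in the RefSeq order, 19 lay in 7 runs of directly adjacent members, 5 of them of protein-coding genes. The longest held 4 genes on chromosome 9, LOC778321, LOC101246381, *TSI-1* and LOC101246666. LOC101246381 ranked second of all, with 0.29, 0.87 and 0.63 TPM in the WT meristem and 20.0, 11 and 29.4 in the *dgt* meristem and 133, 101 and 143 in WT differentiation. LOC778321 had 0, 0.05 and 0 TPM in the WT meristem and 10.7, 6.38 and 9.01 in the *dgt* meristem, and LOC101246666 had no reads in any WT meristem library and 9.80, 5.30 and 8.57 TPM in *dgt*. These 4 shared the low WT meristem level but not the WT differentiation level, which ranged from 0.31 TPM for LOC101246666 to 126 for LOC101246381. On chromosome 2, LOC101244438, LOC101244141 and LOC101243845 were adjacent. LOC101243845 had 1.46, 1.31 and 1.02 TPM in the WT meristem and 49.2, 37.5 and 60.6 in the *dgt* meristem, and 308 ± 40.4 TPM in WT elongation and 522 ± 72 in WT differentiation (SD, n = 3). In differentiation all 3 of these genes had a lower *dgt* than WT mean, with L of -0.50, -0.95 and -1.26. On chromosome 8, *AADC2* lay between LOC101249387 and LOC101249664. LOC101249387 had 1.28, 1.31 and 0.43 TPM in the WT meristem and 15.8, 8.81 and 15 in the *dgt* meristem, and LOC101249664 0.4, 0.62 and 0.46 TPM in the WT meristem and 8.36, 5.58 and 9.30 in the *dgt* meristem, with WT differentiation means of 436 and 171. LOC101258632 and LOC101258926 on chromosome 3 and *GA2ox4* and *GA2ox5* on chromosome 7 formed pairs, and the 2 other runs held small nuclear RNAs on chromosome 3 and small nucleolar RNAs on chromosome 9. A read matching more than one transcript is shared out among them by RSEM, so the values of neighbouring copies, if they are alike in sequence, are not independent. Over the 200 genes, 105 had an expected count that was not whole, by more than 0.005, in at least 15 libraries.

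The 38 genes not over 2 TPM in any WT zone had medians of 0.115, 0.0317 and 0.183 TPM in WT meristem, elongation and differentiation, and 6.71, 0.545 and 0.758 in *dgt*. Their *dgt* meristem means ran from 1.33 to 62.8 TPM. The highest, LOC100750252, had 0.08, 0.27 and 0.1 TPM in the WT meristem and 74.4, 56.4 and 57.7 in the *dgt* meristem, and 7.32, 13.3 and 7.50 in *dgt* elongation. LOC101244792 had 0, 0.22 and 0 TPM in the WT meristem and 29.1, 28.8 and 29.4 in the *dgt* meristem, and 12.4, 11.2 and 9.41 in *dgt* differentiation. Both were named after their values were seen, and both were among the genes higher in *dgt* in all zones. Over all 200 genes, 35 had at most 3 counts in each WT meristem library and 15 had at most 3 counts in every WT library, so no fold is given for them.

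Of the 52 genes over 2 TPM in the WT meristem, small structured RNAs set aside, 6 were highest there. Among these was *fsm1*, which encodes a small MYB-type (RADIALIS-like) protein. It had 1.32, 2.65 and 2.43 TPM in the WT meristem and 16.2, 12.6 and 13.3 in the *dgt* meristem, no reads in the older WT zones and 0.37, 1.86 and 0.65 TPM in *dgt* elongation. LOC101250683 had 7.48, 6.06 and 9.91 TPM in the WT meristem and 23.3, 21.4 and 21.2 in the *dgt* meristem, and at most 0.08 TPM in the older WT zones, and LOC101262482 7.77, 8.86 and 12.9 TPM in the WT meristem and 40.6, 40.5 and 55.2 in the *dgt* meristem. LOC104649221, a long noncoding RNA, had 5.73, 5.54 and 10.8 TPM in the WT meristem and 49.5, 65 and 116 in the *dgt* meristem, with a WT elongation mean of 0.417 TPM. Unlike most of the 200, these genes were already highest in the meristem in WT. The last 3 were named after their values were seen. LOC101243640, highest of the 169 genes in the WT meristem, had 50.6, 49.2 and 32.7 TPM in the WT meristem and 103, 112 and 158 in the *dgt* meristem, and was nevertheless highest in WT differentiation, at 165, 249 and 289 TPM.

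Small structured RNAs were the remaining 31 genes (15.5%, against 4.46% of all genes). By RefSeq annotation 7 were ribosomal RNAs, 10 small nuclear RNAs, 8 small nucleolar RNAs and 3 transfer RNAs, and 3 had no match but the same length of 156 bases as the ribosomal RNAs. The most abundant, the ribosomal RNA gene LOC112941208, had 300.3, 378 and 369.7 TPM in the WT meristem and 1608, 1648 and 606 in the *dgt* meristem. The small nucleolar RNA LOC112941026 had 316, 135 and 346 TPM in the WT meristem and 734, 614 and 818 in the *dgt* meristem. Summed over the members, ribosomal RNA genes held 29.6, 44.9 and 35.8 CPM (counts scaled to a common library total) in the WT meristem and 182, 189 and 68.1 in the *dgt* meristem. Small nuclear RNA genes held 2.09, 4.63 and 2.08 in WT and 29.1, 23.8 and 6.40 in *dgt*. In both kinds the third *dgt* library was far below the other two, and 20 of the 31 genes had their lowest *dgt* meristem value there, as did 20 of the 169 others. Small nucleolar RNA genes, with 36.3, 31.2 and 45.9 in *dgt* against 11.7, 9.44 and 12.6 in WT, did not show that drop. Unlike the 169 other genes, all of which separated the meristem libraries of the genotypes, 23 of the 31 did so. In WT differentiation against elongation edgeR called 0 of 12 tested (32.4% of all genes tested in either direction), with 1 at an unadjusted p under 0.05, and DESeq2 called 0.

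The low counts behind some of these RNAs limit them further. Of the 31, 6 had at most 20 counts summed over the *dgt* meristem libraries. *TRNAP-UGG_5*, a proline transfer RNA gene, had 7.22, 2.72 and 5.17 TPM in the *dgt* meristem, which stood for 3, 1.14 and 1.93 counts, and none in any other group. *TRNAF-GAA_21* and *TRNAF-GAA_6*, phenylalanine transfer RNA genes, each had a *dgt* meristem library at 0. The library kit selects polyadenylated RNA, which most of these RNAs are not. Among all annotated genes of these kinds tested in the meristem, 9 of 18 ribosomal RNA genes were called higher in *dgt*, 5 of 32 small nuclear RNA genes higher, and 14 of 125 small nucleolar RNA genes higher and 5 lower. Of all genes tested, 10.1% were called higher and 2.72% lower, so the numbers of small nucleolar RNA genes called were near those of all genes. Their summed level was nevertheless higher in *dgt*. All 308 small nucleolar RNA genes held 283, 329 and 387 CPM in the WT meristem and 526, 562 and 764 in the *dgt* meristem. The median log2 difference was 0.501 over the small nucleolar RNA genes tested and -0.039 over all genes tested. All 35 ribosomal RNA genes held 76.7, 137.7 and 101.6 CPM in the WT meristem and 323, 347 and 135.8 in the *dgt* meristem. All 194 small nuclear RNA genes held 18.1, 33.0 and 18.7 in WT and 113, 84.6 and 31.7 in *dgt*. In both of these kinds the third *dgt* library fell below WT replicate 2, so the genotypes overlapped.

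**Figure D5:**
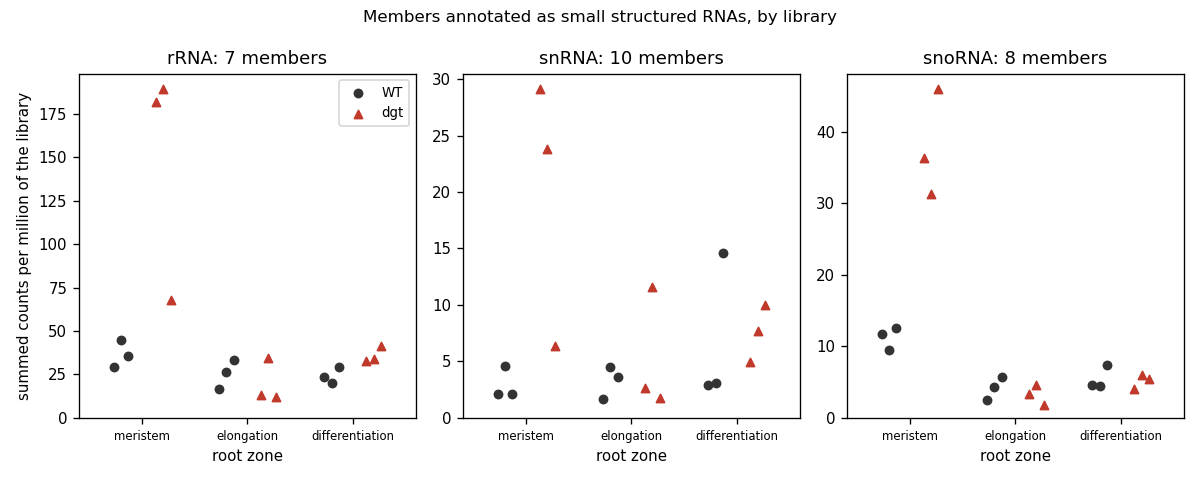
Summed CPM of the member genes annotated as ribosomal RNA (7), small nuclear RNA (10) and small nucleolar RNA (8) in each of the 18 libraries, by root zone; circles are WT and triangles *dgt*, one point per library. For ribosomal and small nuclear RNA the third *dgt* meristem library, at 68.1 and 6.40, lies well below the other 2 *dgt* meristem libraries, and above the WT meristem libraries. The rule selects that last difference, and over all annotated genes of both kinds the genotypes overlap in the meristem.

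Since most of the genes are expressed in older WT zones, markers of those zones were set beside them. Elongating-cell genes (expansins, xyloglucan hydrolases and endoglucanases, 24 by symbol) summed to 699.5 to 793 TPM in the WT meristem, 771 to 899 in the *dgt* meristem and 2135 to 2138 in WT elongation. In the *dgt* meristem 2 of 20 tested were called higher, *XTH3* and *XTH5*, and 2 lower, *cel5* and *XTH9*, where 10.1% and 2.72% of all genes tested were. The mean of *XTH5* was 5.38 TPM in the WT and 15.3 in the *dgt* meristem, and that of *XTH9* was 30.9 and 16.5. Some genes of this list were higher in the WT meristem than in WT elongation, such as *cel7* (73.6 and 1.52 TPM). Nutrient-uptake genes of the differentiated root (10 by symbol) summed to 89.1 to 134 TPM in the WT meristem, 119 to 126 in the *dgt* meristem and 896 to 1057 in WT differentiation, with 1 of 5 tested higher, *AMT1-2*. Most of this meristem sum was *PT1*, with means of 90.8 TPM in WT and 93.9 in *dgt*. *AMT1-2* had 5.9 and 17.4 TPM in these meristems and *LeAMT1;1* 8.02 and 4.65. Light-harvesting and Rubisco genes of green tissue (16) summed to 21.7 to 92.6 TPM in WT and 47.8 to 56.2 in *dgt* meristem libraries, with 0 of 15 called by edgeR in either direction, 1 at an unadjusted p under 0.05 and 0 called by DESeq2. Of the 18 dividing-cell genes, 1 was called higher and 1 lower. Under 2-fold but at an edgeR adjusted p under 0.05, *cdkB2* (log2 difference -0.985), *CycB2* (-0.857) and *CDKC* (-0.773) were lower in the *dgt* meristem. In the same range *krp3* (0.861), *krp4* (0.74) and *cycd3c3* (0.679) were higher. Marker sums of the uptake and green tissue lists overlapped between the meristem genotypes, that of elongating cells did so in part, and none of these marker genes was among the 200. The part of a different mixture of cells, or of a different dissection boundary, in the levels of the 200 genes was not tested.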

How the data were processed

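RNA-Seq libraries of the meristem, elongation and differentiation zones of WT and *dgt* roots, 3 biological replicates each, were sequenced by the authors as single-end reads of 51 bases (CASAVA 1.8.2). The authors assigned reads to tomato Heinz transcripts with RSEM and deposited its expected counts per gene, without normalization. The TPM values were also made by the authors with RSEM and deposited, scaled to transcript length and library total. The isoform files and the authors' tables of their own EBSeq comparisons, which hold posterior probabilities and fold changes, were not used here.

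The score was computed from the deposited TPM with a pseudocount of 1, and a gene was taken as expressed at a mean TPM over 2. Rounded expected counts were tested with edgeR 4.0.16 (glmQLFit and glmQLFTest, R 4.3.3) after filterByExpr (minimum count 10, total 15) and TMM scaling, each comparison on its own 6 libraries. A gene was called at a fold over 2 with a p-value, adjusted over all genes by Benjamini-Hochberg, under 0.05. DESeq2 1.42.0 was an alternative. The fits were tested on simulated counts. Tables and plots were made with Python 3.11.15, pandas 2.3.3 and matplotlib 3.10.9. The members and the gene lists were chosen with earlier results of these data known.

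Named genes were the 12 highest scores, all members with a symbol, the 5 genes on each side of the cutoff, the 3 highest members of each WT zone and the 4 smallest p in each direction between the older WT zones. The gibberellin oxidase list and the symbols from the RefSeq table (SLM_r2.1, used for names, kinds of gene and gene order only) were added afterwards, and any other gene is marked in the text. Promoter and protein sequences were not analysed here. In WT, elongation and differentiation libraries with the same replicate number deviated together (correlations 0.50, 0.24 and 0.21 over genes). Replicate 3 of differentiation correlated more with another elongation number. A pairing by number was thus read from the data alone. The fits reported above did not use it, and a block for the replicate number was run only as an alternative. The 18 libraries hold 17919441 counts or more, so the spread between 3 replicates limits the precision more than counting does, except for genes at a few counts.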

Additional observations from a re-analysis of the deposited data

How the results depend on the processing

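The choice of genes depended most on the pseudocount. With 0.1 in place of 1 on TPM, 114 of the 200 genes were chosen again, and with 5, 125 were. The number over 2 TPM only in older WT zones was then 118 and 32, against 79, and the number over 2 TPM in the WT meristem 11 and 103, against 52, while differentiation was the highest WT zone for 119 and 100 genes, against 122. TMM scaling of TPM kept 173 of the 200, leaving out 1 meristem library 174 to 186, and leaving out 1 replicate number in all groups 160 each time. Without small structured RNAs 169 were chosen again, and with at least 10 counts required in each *dgt* meristem library 187, both settings added after seeing the data. At any fold, the genes called higher in WT differentiation numbered 62 in place of 35, and in *dgt* 66 were higher in differentiation in place of 33 and 43 in elongation in place of 25. The share of all genes called at any fold is not given here, so nothing about the 200 genes is read from these rises. With the replicate number as a block, counts in the WT comparison of older zones were 35 and 26, as without it, and in *dgt* 34 and 24. The *dgt* libraries of those zones did not deviate together by number (correlations -0.05 to -0.27). Over the WT and *dgt* meristem the block left 180 genes called higher in place of 182, and leaving out 1 library 169 to 193. RLE factors, DESeq2 and no filter on low counts kept every count within 1.5 times.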
